A study of Mus musculus with 40 samples.

Results

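The 10 genes described here encode the striatal cAMP and DARPP-32 signalling pathway: Gnal, Gng7, Rgs9, Adcy5, Pde10a, Pde1b, Ppp1r1b, Arpp21, Ptpn5 and Rasgrp2. They were chosen by name, as the rows of the gene count table that carry these symbols. All 10 were found among 24060 rows, and all 10 passed the filter on low counts in every comparison. Medium spiny neurons, the projection neurons of the striatum, receive dopamine on D1 or D2 receptors. D1 receptors and adenosine receptors of the Adora2a type act through Golf (Gnal with a gamma subunit such as Gng7) to switch on adenylyl cyclase 5 (Adcy5), and phosphodiesterases such as Pde10a and Pde1b break the cAMP down. The cAMP-dependent kinase PKA then phosphorylates DARPP-32 (Ppp1r1b), which in that state inhibits protein phosphatase 1, and these genes are known for their high expression in striatal medium spiny neurons.

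The series holds 40 RNA sequencing libraries from the striatum of 24 adult mice, in 10 groups of 4. In RiboTag, an AAV expresses haemagglutinin-tagged Rpl22, a ribosomal protein, in one cell type, and RNA bound to the tagged ribosomes is immunoprecipitated (IP) and sequenced beside RNA of the whole tissue (input). The first cohort, labelled Control and C57/BL6NTac, gave 4 IP libraries and 4 inputs of the same wild-type mice. Its labels do not name the AAV of each sample, and it is called the astrocyte cohort here because the study's methods describe gfaABC1D, an astrocyte promoter, beside the neuronal one. The neuron cohort, also wild-type C57/BL6NTac, carried Rpl22-HA under the human synapsin 1 promoter (hSYN1), which is active in many kinds of neuron. AAVs were injected into the dorsal striatum at 6 weeks of age in these cohorts. The SAPAP3 cohort compared C57/BL6J wild-type (WT) mice with Sapap3 knockout (KO) mice, which lack Dlgap3, a postsynaptic scaffold gene, on a C57/BL6J background. Its mice were injected at 4.5 months, and each gave an IP and an input library. The promoter of that IP is named by neither the labels nor the methods, and its IP is called the SAPAP3 cohort IP here. The last groups were 4 bulk WT and 4 bulk KO striatum libraries, both labelled C57/BL6NTac, of mice without a stated AAV. One animal identifier stands in the labels of both a bulk WT and a bulk KO library.

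Library totals ran from 23438112 to 84109800 counts. Dlgap3 was lower in KO than in WT libraries without overlap in inputs, IP and bulk, with means that differed by 1.19 ± 0.10, 1.40 ± 0.17 and 1.14 ± 0.14 on the log2 scale (fitted difference ± SE). In bulk no gene passed the edgeR test at an adjusted p under 0.05, Dlgap3 included. The 10 astrocyte markers summed to 3548–3694 CPM (counts-per-million of the library total) in astrocyte cohort inputs and 30175–33607 in its IP, against 5844–6356 and 3124–3477 in the neuron cohort. In the SAPAP3 cohort they summed to 5764–7782 in inputs and 21047–31324 in IP. All 10 of these markers passed the test as higher in astrocyte IP and in SAPAP3 WT IP. Markers of medium spiny neurons summed to 5317–5673 CPM in astrocyte cohort inputs and 2177–2636 in its IP, so neuronal RNA was present there. Xist, the female-specific transcript, was at 1 count or less in all astrocyte cohort libraries and at 1843–14313 counts in all neuron cohort libraries, so a difference between these cohorts cannot be told apart from one between the sexes. Xist exceeded 100 counts in 1 of 4 WT and 2 of 4 KO inputs of the SAPAP3 cohort, and in 2 of 4 bulk WT and 0 of 4 bulk KO libraries, while Y-linked genes did so in all 4 libraries of each bulk group. With Xist as a covariate the members' median KO over WT difference was −0.25 in inputs, −0.22 in IP and −0.046 in bulk. The 10 markers of cortical excitatory neurons, whose cell bodies lie outside the striatum, summed to 135–173 CPM in astrocyte cohort inputs, 882–1214 in neuron cohort inputs, 170–1034 in SAPAP3 cohort inputs and 299–1195 in bulk libraries. SAPAP3 WT replicate 1 stood apart, with the lowest cortical and highest member counts of its group in both libraries, and the KO over WT values and the count of lower members in WT IP are given with and without it.

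Promoters of members were compared because the 10 genes shared the sign of their fitted difference in each comparison of IP with input, though not its size. RefSeq start-site windows (GRCm38.p6, 250 upstream bases) were matched for 8 of the members, with 22 windows in all. The GC box GGGCGG, searched on both strands, was in 8 of the 22 windows (36.4%) against 32.7% of all 32851 windows, and the full cAMP response element TGACGTCA was in 0 of the 22, against 1.55% of all. Adcy5 and Rgs9, the cyclase and the GTPase accelerator, are shown as examples of a window with several boxes and one with a single box, with boxes on either strand in capitals and each sequence written 5′ to 3′ on its gene's strand. They lie at chr16:35154670-35154863 (plus strand) and chr11:109298182-109298431 (minus strand).
Adcy5: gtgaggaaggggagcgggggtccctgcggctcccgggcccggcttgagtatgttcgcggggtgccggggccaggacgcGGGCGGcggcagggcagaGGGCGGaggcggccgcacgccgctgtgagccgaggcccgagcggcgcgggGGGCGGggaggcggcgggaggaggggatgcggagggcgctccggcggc
Rgs9: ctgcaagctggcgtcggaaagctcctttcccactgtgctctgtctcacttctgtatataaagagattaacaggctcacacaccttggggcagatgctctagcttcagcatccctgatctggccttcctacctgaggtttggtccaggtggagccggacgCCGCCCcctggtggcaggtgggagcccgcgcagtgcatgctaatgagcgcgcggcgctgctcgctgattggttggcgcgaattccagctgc
The windows were unevenly spread, since Arpp21 supplied 9 of them, with 0 boxes, and the other 13 held 8. The box was in a window of 7 of the 8 members, but windows of a gene with several starts can overlap. The share of all genes with a box in any window is not given, so that count has no background. A gene with more windows also has more chances to hold a box. The Adcy5 stretch lies directly before the start of its curated model and was trimmed to the 194 bases outside an exon of a predicted model. A predicted noncoding RNA, Gm39441, starts inside the Rgs9 window on the opposite strand.

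Levels between genes were compared per length, as FPKM (fragments per kilobase of exon, scaled as CPM is) computed from the counts with RefSeq curated exon lengths. Ppp1r1b (chr11:98348406-98357796, plus strand, GRCm38) had the highest mean level in all 10 groups, followed by Pde1b (chr15:103503034-103530056, plus) and Pde10a (chr17:8525187-8986648, plus). In astrocyte cohort inputs the mean FPKM levels were 759.6 ± 20.3 for Ppp1r1b (SD, n = 4), 560.3 for Pde1b and 316 for Pde10a. Pde10a and Adcy5 (chr16:35154494-35305743, plus), with a mean level of 313 FPKM, overlapped in range, as did Gnal (chromosome 18) at 194 and Gng7 (chr10:80948624-81014925, minus) at 187. Ptpn5 (chr7:47077795-47134026, minus) at 168 FPKM, Arpp21 (chr9:112065091-112236288, minus) at 129, Rasgrp2 (chr19:6398957-6415216, plus) at 105 and Rgs9 (chr11:109225348-109298181, minus) at 95.9 followed, each separate from its neighbour. In neuron IP Ppp1r1b at 593 and Pde1b at 504 FPKM overlapped, and Gnal at 214 overlapped Adcy5 at 205. With these curated lengths Arpp21 held a different place in astrocyte IP, where it was the lowest member at 29.8 FPKM, below Rgs9 at 42.5. With exon lengths of all RefSeq models, predicted ones included, the place of Pde10a fell from 3rd to 5th or 6th, so its rank rests on which exons count as its length. With those lengths Arpp21 was 9th and Rasgrp2 10th in astrocyte cohort inputs and IP alike. The change of place of Arpp21 thus rests on the lengths too.

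**Figure D1:**
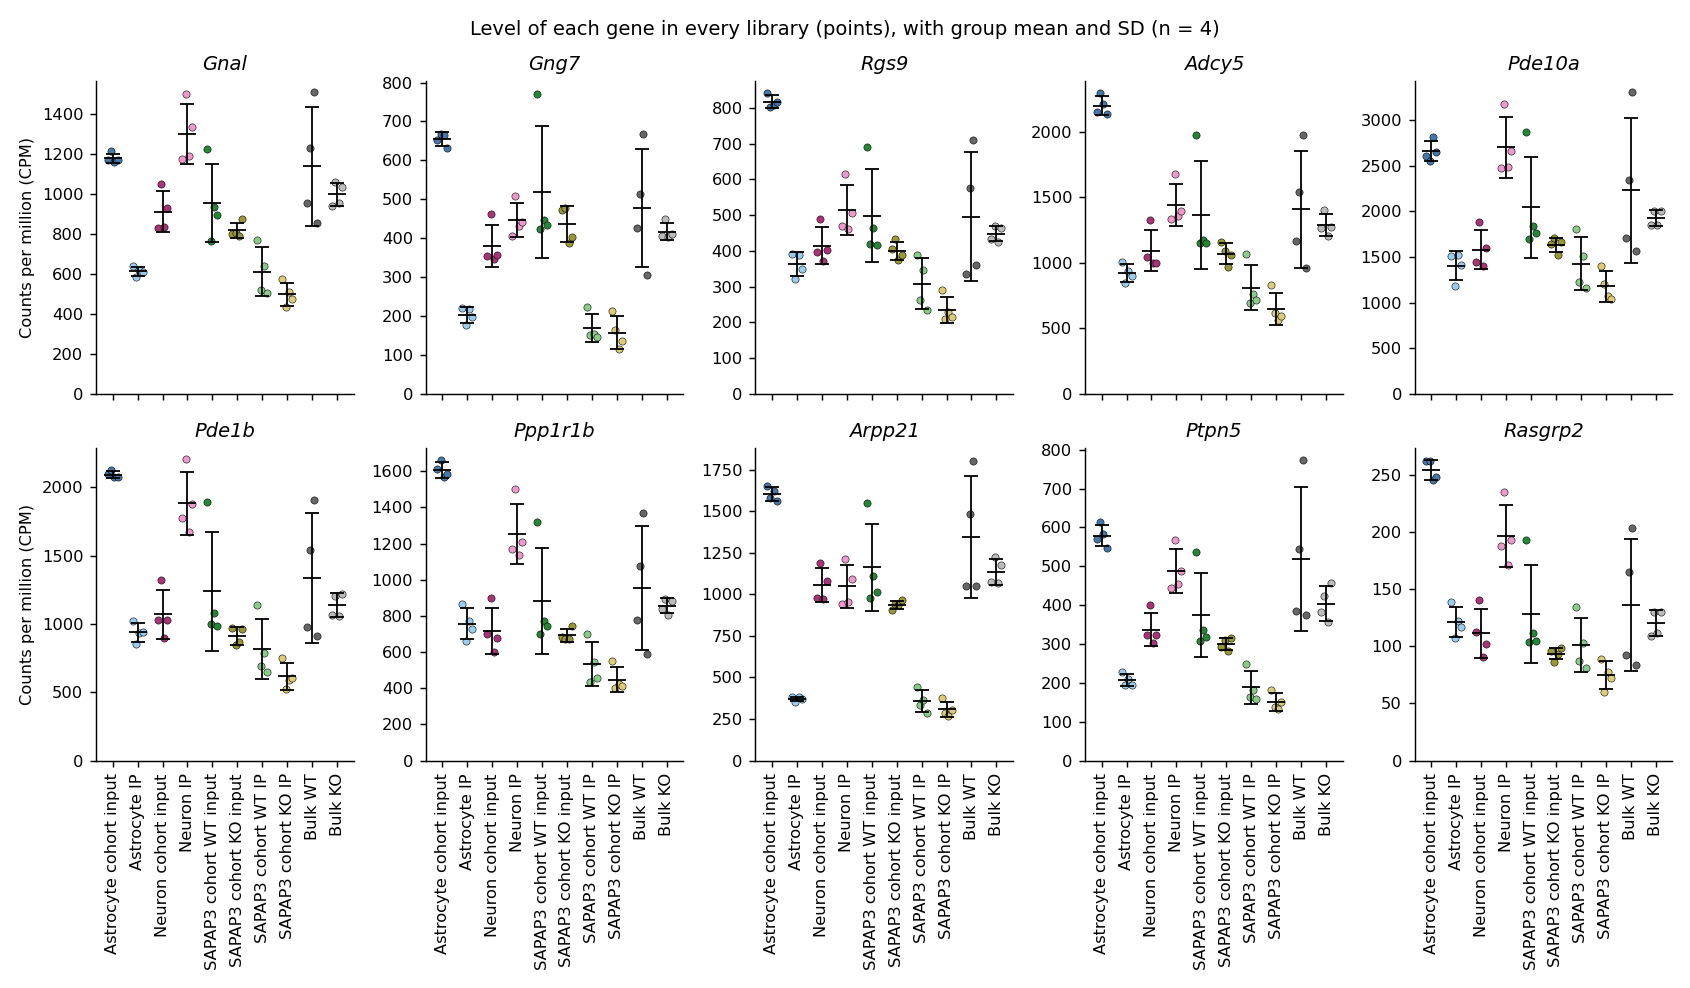
CPM (linear axis from 0) of the 10 members, one panel per gene and one column per group of 4 libraries, with a point for each library, the group mean as a horizontal line and error bars of 1 SD. Neuron IP lies above its input for Ppp1r1b (1136–1499.8 against 599–896 CPM), and astrocyte IP lies below its input (662–865 against 1566–1664).

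In the astrocyte cohort all 10 members were lower in IP than in input with TMM scaling (7 were higher when scaled to ribosomal protein genes), with fitted log2 differences from −1.89 to −0.70 and a median of −0.94. Every member's IP libraries lay below its inputs without overlap, for which the share of all genes is not given. The background was large, since 41.2% of the 15476 genes tested were called lower in this comparison (edgeR quasi-likelihood test, adjusted p under 0.05), and the median of all genes tested was −0.02. Past a fold limit of 1 on the log2 scale 4 of 10 members were called lower (Gng7, Adcy5, Arpp21 and Ptpn5), against 13.5% of all genes. In bulk tissue and IP alike, fewer cells of a type and less RNA per cell cannot be told apart.

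Among the G protein components, Gnal, the alpha subunit of Golf, was measured at 1170.3, 1213, 1158 and 1171 CPM in astrocyte cohort inputs and 641, 584, 616 and 608 CPM in IP. It was lower in each IP library and fell by 0.72 ± 0.04 on the log2 scale (SE; edgeR adjusted p = 8.3e-09). Gng7, the gamma subunit, was at 653, 668, 666 and 631 CPM in inputs and 221, 175, 216 and 198 in IP, and fell by 1.47 ± 0.07 (edgeR adjusted p = 2.6e-09). Rgs9, which speeds GTP hydrolysis by Gi and Go proteins below D2 receptors, was at 804–843 CPM in inputs and 322–391 in IP. The fall of Gng7 exceeded that of its partner Gnal in all 4 mice.

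Adcy5, the main adenylyl cyclase of medium spiny neurons, was measured at 2153, 2299, 2214 and 2135 CPM in astrocyte cohort inputs and 1006, 841, 936 and 901 in IP. It fell by 1.03 ± 0.05 on the log2 scale (edgeR adjusted p = 1.0e-08). Pde10a, which hydrolyses both cAMP and cGMP, had 2613, 2558, 2814 and 2651 CPM in inputs and 1507, 1180.0, 1521 and 1407 in IP, the smallest decline of the 10 members in this cohort (−0.70 ± 0.07). Pde1b, the calcium and calmodulin dependent phosphodiesterase, was at 2073–2127 CPM in inputs and 855–1021 in IP. The groups of each of these genes were separate.

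Ppp1r1b, which encodes DARPP-32, was measured at 1610.4, 1664, 1566 and 1582 CPM in astrocyte cohort inputs and 865, 662, 774 and 728 in IP. The IP libraries were all lower, and the fitted fall was by 0.86 ± 0.07 on the log2 scale (edgeR adjusted p = 3.8e-07). Arpp21, a PKA substrate that in phosphorylated form binds calmodulin, was at 1651, 1579.8, 1621 and 1559 CPM in inputs and 382, 351.6, 381 and 368 in IP. Its fall by 1.89 ± 0.04 (edgeR adjusted p = 1.1e-11) was the largest of the members. Ptpn5, the striatum-enriched tyrosine phosphatase STEP, was at 547–615 CPM in inputs and 193–228 in IP, and Rasgrp2, a calcium-sensitive exchange factor for Rap1, was at 245–262 and 107–139 CPM.

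In the neuron cohort 9 of 10 members were higher in IP than in input, with a median log2 difference of 0.73 over all 10, while 35.5% of the 16198 genes tested were called higher. Past the fold limit 3 of 10 were called higher (Pde1b, Ppp1r1b and Rasgrp2), against 0.42% of all genes. In CPM 7 of 10 members had separate groups, and Gng7, Rgs9 and Arpp21 overlapped. The share of all genes with separate groups is not given for this or the other comparisons, so such counts have no background here.

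Ppp1r1b was at 697, 896, 599 and 677 CPM in neuron cohort inputs and 1169, 1499.8, 1136 and 1208 in IP. All IP libraries were higher, with a log2 difference of 1.01 ± 0.13 (edgeR adjusted p = 5.2e-05). Pde1b was at 1029, 1318, 897 and 1029 CPM in inputs and 1772, 2203, 1674 and 1877 in IP (1.02 ± 0.12), and Rasgrp2 was at 112, 141, 90.8 and 102 in inputs and 188, 235, 171 and 193 in IP (1.02 ± 0.13). Pde10a was at 1441, 1879, 1406 and 1594 CPM in inputs and 2472, 3181, 2488 and 2669 in IP (0.98 ± 0.11). These 4 genes, a phosphatase inhibitor, both phosphodiesterases and an exchange factor, had the largest differences of the members. Replicate 2 was the highest library of each in input and in IP.

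Gnal was at 831–1049 CPM in neuron cohort inputs and 1177–1501 in IP (0.72 ± 0.10), and Ptpn5 at 302–400.1 and 445–567 (0.74 ± 0.10). Adcy5 was at 1043, 1326, 996 and 1001 CPM in inputs and 1338, 1675, 1360.4 and 1392 in IP, which were separate (0.60 ± 0.11, edgeR adjusted p = 0.00053). The groups of Rgs9 overlapped (371–489 and 462–616 CPM, 0.51 ± 0.11), as did those of Gng7 (346–462 and 405–509 CPM, 0.44 ± 0.10). Both passed the test. Arpp21 was at 976, 1188, 973 and 1078 CPM in inputs and 939, 1214, 952 and 1091 in IP, ranges that nearly coincide, with a fitted difference of 0.20 ± 0.09 (edgeR adjusted p = 0.079). With the replicate number as a block it passed at 0.20 (adjusted p = 3.5e-05), which makes 10 of 10 members higher. Its sign rests on the scaling, since with total counts alone the difference was −0.0068 (edgeR adjusted p = 0.95) and its mean CPM was 1054 in inputs and 1049 in IP.

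Between the IP libraries of the cohorts, all 10 members were higher in neuron IP than in astrocyte IP, by 0.44 (Rgs9) to 1.44 (Arpp21) on the log2 scale with a median of 0.91, and all 10 were separate in CPM. Of 15468 genes tested 40.3% were called higher in that direction. For Ppp1r1b the difference was 0.66 ± 0.10 (edgeR adjusted p = 0.00011). Inputs differed in the opposite order, with Ppp1r1b at 1606 ± 42.9 CPM in astrocyte cohort inputs and 717 ± 127 in neuron cohort inputs (SD, n = 4), and cortical marker sums were 135–173 and 882–1214 CPM in the same libraries. The part of cortical tissue in that difference between inputs was not tested. The IP over input difference itself was higher in the neuron than in the astrocyte cohort for all 10 members, by 1.44 (Gnal) to 2.09 (Arpp21) with a median of 1.87, where 35.8% of 16371 genes were called higher. Thus Arpp21 showed the largest contrast between the cohorts although its neuron IP hardly differed from input.

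In the SAPAP3 cohort WT mice 7 of 10 members were lower in IP than in input (median −0.54), where 34.6% of genes were called lower. In KO mice 9 of 10 were lower (median −0.52) against 35.9% of genes. Leaving out both libraries of WT replicate 1, chosen after seeing the data, gave 8 lower members in WT with a median of −0.43. Single libraries mattered, since the WT count was 4 without input replicate 1 or input replicate 3 and 3 without IP replicate 2 or IP replicate 4. With the mouse as a block 9 members were lower in WT, Pde10a at −0.34 (adjusted p = 0.0056) and Pde1b at −0.41 (adjusted p = 0.00080) having joined.

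Arpp21 was again the member with the largest fall in this cohort, together with Gng7. Arpp21 was at 1548, 978, 1109 and 1017 CPM in WT inputs and 442, 333, 365 and 286 in WT IP, separate groups with a fall by 1.54 ± 0.17 on the log2 scale (edgeR adjusted p = 3.8e-05). In KO mice it was at 907, 942, 937 and 966 CPM in inputs and 375, 286, 266 and 302 in IP, and fell by 1.41 ± 0.09 (edgeR adjusted p = 3.4e-07). Gng7 was at 771, 422, 445 and 434 CPM in WT inputs and 223, 151, 153 and 146 in WT IP, with a fall by 1.45 ± 0.21, and fell by 1.27 ± 0.16 in KO mice. WT replicate 1 was the highest of both genes in input and IP, but the groups remained separate.

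Ppp1r1b was at 1321, 698, 774 and 742 CPM in WT inputs and 702, 435, 546 and 458 in WT IP, where replicate 1 of the IP lay just above replicate 2 of the inputs, and the fitted fall was by 0.55 ± 0.22 (edgeR adjusted p = 0.048). In KO mice the inputs were at 685, 672, 670.4 and 745 CPM and the IP at 549, 400.4, 424 and 415, separate groups with a fall by 0.43 ± 0.10 (edgeR adjusted p = 0.0020). Rasgrp2 was the one member that passed in neither genotype. Its values were 193, 104, 112 and 105 CPM in WT inputs and 134, 87.1, 103 and 81.4 in IP (−0.17 ± 0.22, adjusted p = 0.52), and the KO value was −0.12 ± 0.10 (adjusted p = 0.29). The IP over input difference was not called different between KO and WT for any member, nor for any gene (0% of 16059, edgeR), and 0 members had an unadjusted p under 0.05.

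**Figure D2:**
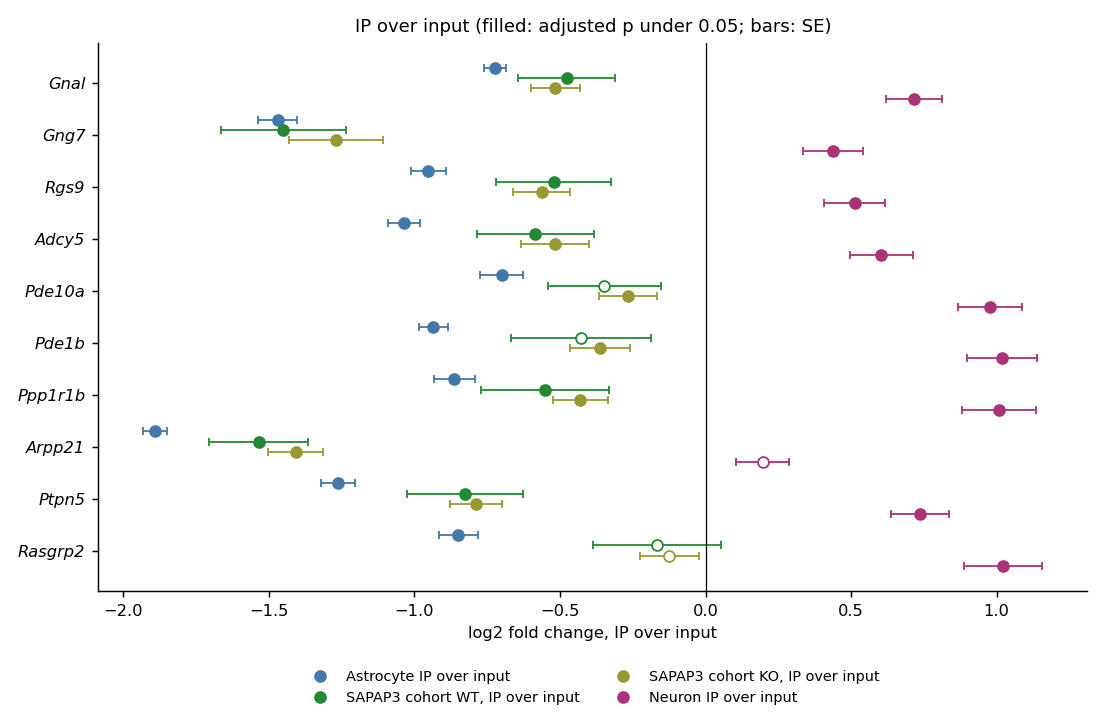
Fitted log2 difference of IP over input for each member in the astrocyte and neuron cohorts and in both genotypes of the SAPAP3 cohort, with bars of 1 SE and filled points for adjusted p under 0.05. Neuron cohort points lie above 0 (0.20 to 1.02) and astrocyte cohort points below 0 (−1.89 to −0.70) with the TMM scaling plotted, whereas 7 of the latter lie above 0 with ribosomal protein scaling.

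All these directions are relative to the other RNA of a library. Scaling to 76 ribosomal protein genes moved the median of all genes by 1.20 in the astrocyte, 0.46 in the neuron, 0.74 in the SAPAP3 WT and 0.63 in the SAPAP3 KO comparison of IP with input, and turned the sign of 7, 0, 7 and 7 members. Relative to the median of all genes, the members' median in the astrocyte cohort was −0.92 and in the neuron cohort 0.73 under each of the 4 scalings tried. In the SAPAP3 cohort it was −0.51 to −0.48 in WT and −0.52 to −0.51 in KO. A scaling moves all genes of a comparison by nearly the same amount, so this distance could hardly differ between scalings. Its agreement is therefore no test of the directions.

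The members did not keep fixed proportions to one another. In a description chosen after the values were seen, the log2 ratio of CPM to Ppp1r1b within each library shifted from input to IP by −1.02 for Arpp21 in the astrocyte cohort, −0.82 in the neuron cohort, −1.0 in SAPAP3 WT and −0.98 in SAPAP3 KO mice. For Gng7 the shifts of this ratio were −0.61, −0.57, −0.90 and −0.86, and for Ptpn5 −0.40, −0.28, −0.28 and −0.36. Input and IP ratios of these 3 genes were separate in every cohort and genotype. Pde1b moved with Ppp1r1b, with shifts between −0.07 and 0.12 that overlapped everywhere. The ratio of Rasgrp2 shifted by 0.01 and 0.02 in the wild-type RiboTag cohorts and by 0.38 and 0.30 in the SAPAP3 cohort. Arpp21, Gng7 and Ptpn5 were thus lower relative to Ppp1r1b in IP of either cell type. So was Adcy5, with separate shifts of −0.17 in the astrocyte and −0.41 in the neuron cohort, but its ratios overlapped in the SAPAP3 cohort. The ratio of Gnal shifted by 0.15 in the astrocyte and −0.30 in the neuron cohort. That of Rgs9 was separate in the neuron cohort only, at −0.50. Ratios within a library do not depend on how libraries are scaled.

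Between Sapap3 KO and WT mice no member was called in inputs, IP or bulk tissue by edgeR, limma-voom or DESeq2, where edgeR called 0.00641%, 0.0263% and 0% of all genes. The 0% in bulk means that edgeR did not call the knocked-out gene Dlgap3 there either. At an unadjusted p under 0.05 there were 1, 3 and 0 of 10 members, against 5.57%, 2.63% and 4.94% of all genes (edgeR). All 30 fitted differences were negative, with medians of −0.29 in inputs (−0.42 to −0.19), −0.29 in IP (−0.42 to −0.08) and −0.22 in bulk (−0.38 to −0.15). Input and IP libraries came from the same mice, and the 10 genes vary together, so these are not 30 separate results. The lowest adjusted p was 0.73, 1.00 and 0.98. The KO over WT difference was not called different between bulk and inputs for any member (0% of 16258 genes, edgeR), and 0 members had an unadjusted p under 0.05 there.

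For Ppp1r1b the inputs were at 1321, 698, 774 and 742 CPM in WT and 685, 672, 670.4 and 745 in KO, and the bulk libraries at 779, 1076, 1370.4 and 589 in WT and 838, 895, 804 and 884 in KO. Among inputs 3 of 4 WT libraries lay close to the KO range and replicate 1 stood far above it, while the bulk WT libraries spread on both sides of the KO libraries. Rasgrp2, the gene with the lowest unadjusted p, was at 193, 104, 112 and 105 CPM in WT inputs and 96.1, 86.6, 93.6 and 98.3 in KO inputs, separate groups with a difference of −0.42 ± 0.17, which was −0.17 without WT replicate 1. In IP it was at 134, 87.1, 103 and 81.4 in WT and 89.1, 60.0, 77.5 and 72.0 in KO, which overlap, with a difference of −0.42 that was −0.26 without WT replicate 1. Pde1b and Arpp21 were the other members with separate inputs, 983–1890.3 against 848–972 CPM for Pde1b and 978–1548 against 907–966 CPM for Arpp21, and their differences of −0.40 and −0.28 were −0.14 and −0.12 without WT replicate 1.

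The size of the medians in inputs and IP, and the sign in bulk, rested on single WT libraries. Without SAPAP3 WT replicate 1 the median of the members was −0.10 in inputs and −0.14 in IP, with 9 of 10 still negative in each. Without bulk WT replicate 3 it was 0.01 in bulk, with 5 of 10 negative. In these settings too no member was called.

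**Figure D3:**
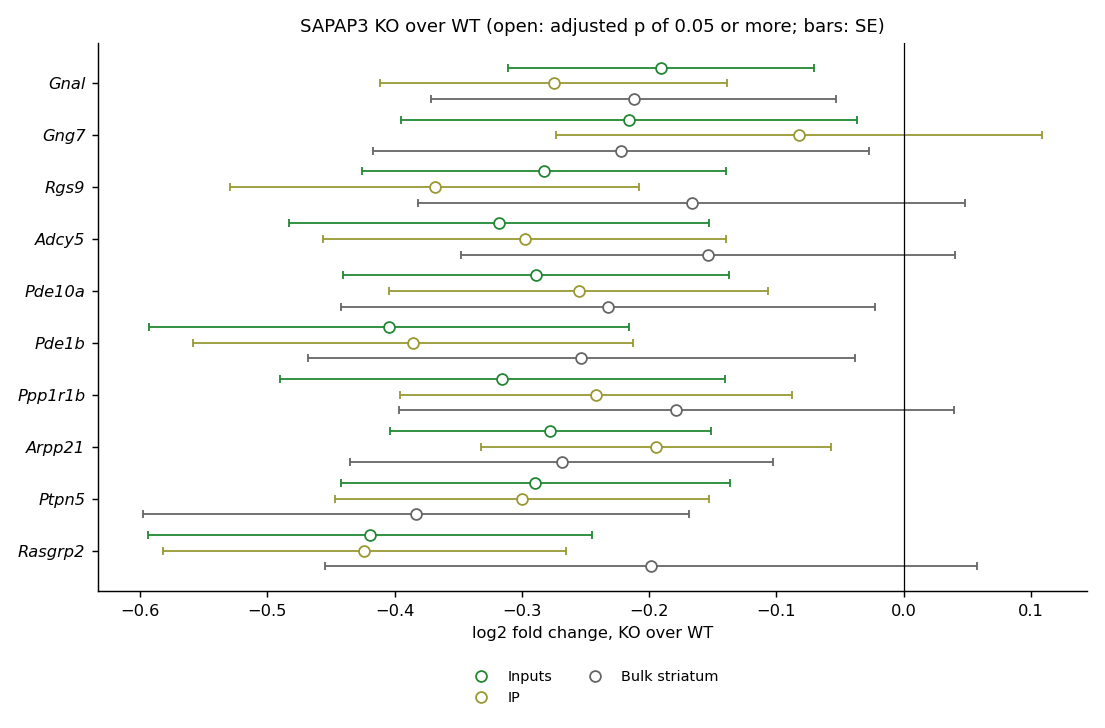
Fitted log2 difference of KO over WT for each member in inputs, SAPAP3 cohort IP and bulk striatum, with bars of 1 SE and open points for an adjusted p of 0.05 or more. All 30 points are open and lie below 0 (−0.42 to −0.08), and some bars cross it.

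In SAPAP3 cohort inputs and in bulk libraries, the summed CPM of the members was lower where that of the cortical markers was higher. The relation was tested in these libraries only. Among the other groups the order of libraries was fully inverse in neuron cohort inputs, neuron IP and astrocyte IP. It was not so in astrocyte cohort inputs or in SAPAP3 WT and KO IP. In SAPAP3 KO IP the library with the lowest cortical sum (366 CPM) also had the lowest member sum (3971). In SAPAP3 cohort inputs WT replicate 1 had a cortical sum of 170 and a member sum of 13030 CPM, while the other 7 libraries had 776–1034 and 6894–8268 CPM. Over the 8 inputs Pearson's r of the log2 sums was −0.99 (exact permutation p = 0.0019, adjusted 0.0019) and Spearman's rho −0.79 (exact permutation p = 0.028, adjusted 0.028). Leaving out the 2 libraries farthest from the median gave r = −0.72 (exact permutation p = 0.11), so that relation rested on those libraries. In bulk tissue WT replicates 1 to 4 had cortical sums of 1195, 355, 299 and 1041 CPM with member sums of 7879, 11014, 14238 and 7041, and KO libraries had 572–1015 with 8233–9267. Over the 8 bulk libraries r was −0.93 (exact permutation p = 0.0011, adjusted 0.0019) and rho −0.95 (p = 0.0011, adjusted 0.0023, exact permutation), and r was −0.73 without the 2 farthest (exact permutation p = 0.061), which no longer passed. The 2 relations are over libraries of both genotypes. With the cortical sum as a covariate, chosen after seeing the data, the members' median KO over WT difference was −0.04 in inputs, −0.16 in IP and −0.01 in bulk. The highest gene of the cortical list was Slc17a7 in all input and bulk groups and in SAPAP3 KO IP, but Rorb in SAPAP3 WT IP and astrocyte IP. The cortical sum was 135–173 CPM in astrocyte cohort inputs and 313–524 in astrocyte IP. What the sum measures in IP libraries was not tested.

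**Figure D4:**
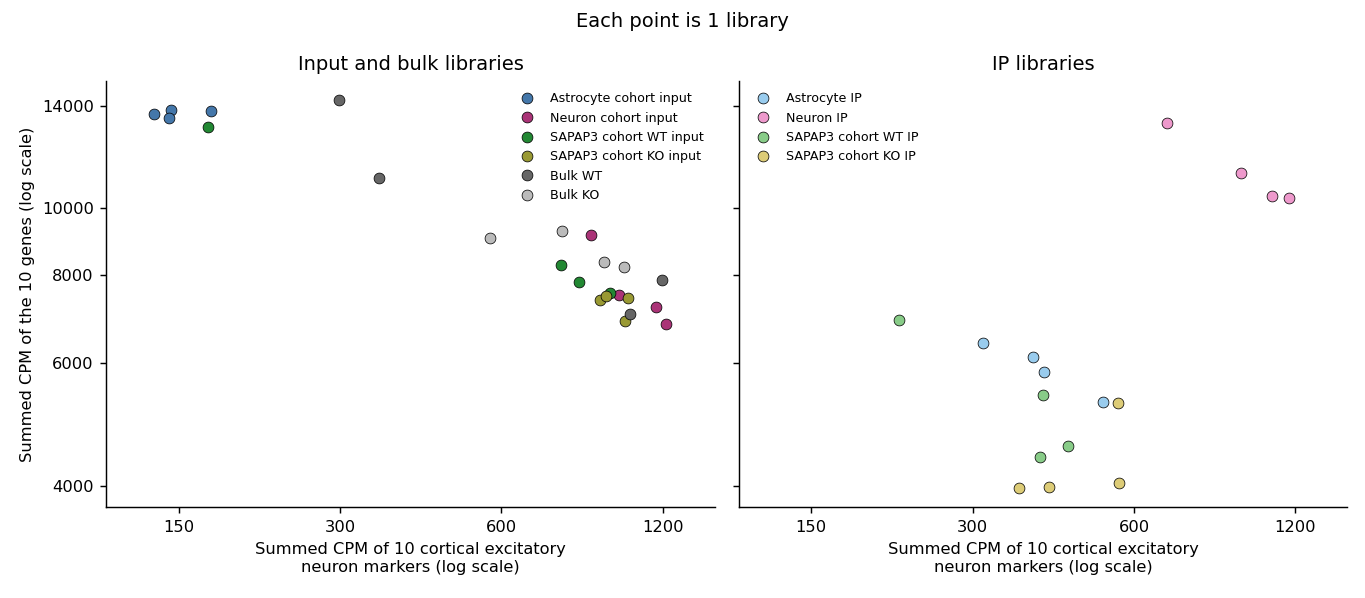
Summed CPM of the 10 members against that of the 10 cortical markers (both log axes), 1 point per library coloured by group, with input and bulk libraries in the left panel and IP libraries in the right. What the cortical sum measures in IP libraries was not tested. On the left, the SAPAP3 WT input with a cortical sum of 170 (13030 CPM of members) and the bulk WT libraries with 299 and 355 (14238 and 11014) lie above the others of their cohorts.

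Paralogues of the members were compared per length within libraries. Gnas, which encodes the widely expressed Gs alpha subunit, lay below Gnal in astrocyte cohort inputs, with a log2 ratio of Gnal to Gnas of 1.71 ± 0.06 (SD, n = 4), and level with it in IP at −0.07 ± 0.13. In the neuron cohort the ratio was 0.55 in inputs and 1.09 in IP. For Gng7 and Gng12, another gamma subunit, it was 3.96 in astrocyte cohort inputs and 0.72 in IP, but 2.32 and 3.83 in the neuron cohort. Adcy5 exceeded Adcy6, its nearest relative among the cyclases, by 6.37 in astrocyte cohort inputs and 4.54 in IP, but by 4.41 and 5.17 in the neuron cohort. The ratio of Ppp1r1b to Ppp1r1a, protein phosphatase inhibitor 1, was higher in astrocyte IP (3.92) than in input (3.20). It was likewise higher in neuron IP (3.16) than in input (2.39). The same held in SAPAP3 WT (3.60 against 2.98) and KO mice (3.49 against 2.75). Rasgrp2 lay below Rasgrp1 in the 4 groups of the astrocyte and neuron cohorts, with mean log2 ratios from −1.92 to −0.60. Its ratio to Rasgrp3 rose from 3.44 in neuron inputs to 6.84 in neuron IP.

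Of 83 other genes of the pathway, 54 were lower and 20 higher in astrocyte IP (median −0.36), where 41.2% of all genes tested were lower and 39.2% higher, and 49 were higher and 16 lower in neuron IP (median 0.31), where 35.5% of all genes were higher and 35.9% lower. Of the same 83, 38 were lower in astrocyte and higher in neuron IP and 4 the reverse. The share of all genes with each of these patterns is not given. By role, 9 of 9 receptors and 10 of 12 phosphatase genes were lower in astrocyte IP, and 7 receptors and 10 phosphatase genes were higher in neuron IP. G protein subunits were divided, with 10 of 18 lower and 7 higher in astrocyte IP, and so were the subunits of PKA, with 3 of 7 lower and 4 higher. Gpr52, an orphan receptor of striatal neurons, fell by 1.60 in astrocyte IP on the log2 scale. Pde3a, Adcy2 and Gng12 rose there by 1.95, 1.94 and 1.76, in contrast to the member phosphodiesterases, cyclase and gamma subunit. Not every phosphodiesterase gene outside the members rose there. Gpr6, an orphan receptor, and Rgs4, a GTPase accelerator, rose in neuron IP by 1.10 and 0.94. Adcy4 had the largest fall in both (−3.39 and −4.16), from low levels of 2.20 and 2.07 CPM in input. In SAPAP3 cohort IP 52 were lower and 11 higher in WT, and 57 and 16 in KO. Of all genes tested 34.6% were lower and 32.7% higher in WT, and 35.9% and 36.1% in KO. Between KO and WT 0 of the pathway genes were called in inputs, IP or bulk by edgeR. The edgeR test gave an unadjusted p under 0.05 for 8, 6 and 0 of them, against 5.57%, 2.63% and 4.94% of all genes.

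The genes whose 10 group means lay nearest to those of Ppp1r1b, by root mean square difference of centred log2 CPM among 11752 genes, were Asic4 (0.06), Shb (0.08), Lingo3 (0.09), Gpr6 (0.09) and Scn4b (0.10). Among members Pde1b was nearest to Ppp1r1b (0.09) and Arpp21 farthest (0.54). Nearest to the mean profile of the members were Lzts3, Doc2b, Drd1a (the D1 receptor), Cd4 and Rgs8, at 0.08 to 0.09.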

How the data were processed

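The authors deposited a table of raw read counts per gene for 40 libraries, from STAR alignments to mm10 counted with HTSeq according to the submitters' processing notes. Versions, annotation and strand setting are not given in the sources used here. 4 members overlap an antisense gene's exons (Gnal with Mppe1, Ppp1r1b with 1700003D09Rik, Arpp21 with 2900079G21Rik and Rasgrp2 with Gm14965), and 0 members have a near-identical copy. The table has 24058 symbols, of which 2 are listed on more than 1 row. The labels describe a stranded kit and HiSeq4000, the study's methods another kit and sequencer.

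Members, lists and tests were chosen with earlier results of these data known. CPM used total counts. FPKM used RefSeq GRCm38.p6 curated exon lengths, matched for 23877 symbols (99.2%). Library totals leave counting error small for all members, and the spread between libraries sets the precision. Each comparison was fitted with edgeR 4.0.16 (R 4.3.3; filterByExpr, TMM scaling, estimateDisp, quasi-likelihood F test) on the libraries compared only, and a gene was called at a Benjamini-Hochberg adjusted p under 0.05 over all genes tested, with no fold limit. SE is the log2 difference divided by the square root of F. The cohort contrast of IP over input was an interaction term. Correlations were tested by exact permutation. Alternatives were DESeq2 1.42.0, limma-voom (limma 3.58.1), RLE, total-count and ribosomal protein scaling, other filters, a fold limit, all 10 groups in one fit, Xist as a covariate, a replicate block and leaving out each library. Scripts were tested on simulated data.

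IP and input of the same number were taken as pairs, from the animal label in the astrocyte and SAPAP3 cohorts and the title number in the neuron cohort, whose labels number the animals differently. Deviations from group means over 11762 genes correlated at 0.25–0.58 (astrocyte), 0.48–0.79 (neuron), 0.53–0.69 (SAPAP3 WT) and 0.43–0.63 (SAPAP3 KO), and 4 of 4 samples in each correlated best with their own number. No pair of libraries of a group agreed within sampling noise (chi-square per gene 3.83–139 over 60 pairs). Mice are the replicates as labelled.

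Genes named are the 10 members, Dlgap3, listed paralogues, up to 3 called pathway genes with the largest changes in each direction, the extremes of marker lists, and the 5 genes nearest in profile. 1 gene that this rule names is not reported here.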

Additional observations from a re-analysis of the deposited data

Results flagged for a closer look

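Dixon's test over the 4 libraries of each group and member marked 13 of 100 sets, where chance gives about 1 in 20, and the members vary together. SAPAP3 WT input replicate 1 lay far above the other 3 libraries for 7 members, at 771 CPM for Gng7 (others 422–445), 1979 for Adcy5 (1151–1172), 2876 for Pde10a (1701–1842), 1890.3 for Pde1b (983–1078), 1321 for Ppp1r1b (698–774), 537 for Ptpn5 (309–337) and 193 for Rasgrp2 (104–112). The IP library of the same mouse stood apart for Gng7 at 223 CPM (146–153). SAPAP3 KO IP replicate 1 stood apart for Ppp1r1b at 549 CPM (400.4–424), and bulk KO replicate 2 for Gng7 at 448 (402–409.5). Neuron cohort replicate 2 stood apart in input for Gng7 at 462 CPM (346–355.6) and Adcy5 at 1326 (996–1043), and in IP for Adcy5 at 1675 (1338–1392).

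The IP over input difference was higher in the neuron than in the astrocyte cohort for each member by a test of the difference itself (edgeR interaction, adjusted p under 0.05). It differed by 1.44 for Gnal, 1.91 for Gng7, 1.46 for Rgs9, 1.64 for Adcy5, 1.68 for Pde10a, 1.95 for Pde1b, 1.87 for Ppp1r1b, 2.09 for Arpp21, 2.00 for Ptpn5 and 1.87 for Rasgrp2 on the log2 scale.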

How the results depend on the processing

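Scaling to ribosomal protein genes, which moves all genes together as given above, changed the most calls. It left 2 lower and 7 higher members in the astrocyte cohort, 2 lower and 1 higher in SAPAP3 WT and 2 lower and 3 higher in SAPAP3 KO. Under it the astrocyte cohort median was 0.25, with Gnal at 0.48, Rgs9 at 0.25, Adcy5 at 0.16, Pde10a at 0.50, Pde1b at 0.26, Ppp1r1b at 0.33 and Rasgrp2 at 0.35. The SAPAP3 WT median was 0.24, with Gnal at 0.29, Rgs9 at 0.25, Adcy5 at 0.19, Ppp1r1b at 0.23 and Rasgrp2 at 0.61. The SAPAP3 KO median was 0.11, with Gnal at 0.12, Rgs9 at 0.063, Adcy5 at 0.11, Pde10a at 0.36, Pde1b at 0.27, Ppp1r1b at 0.20 and Rasgrp2 at 0.51. With a fold limit the members called were 4 in the astrocyte cohort, 3 in the neuron cohort, 2 in SAPAP3 WT, 2 in SAPAP3 KO and 4 in neuron against astrocyte IP. Leaving out each library gave 9–10 higher in the neuron cohort, 3–8 lower in SAPAP3 WT and 8–10 lower in SAPAP3 KO. The replicate block changed no call of a member other than those of Arpp21, Pde10a and Pde1b given above. No paired analysis of KO against WT was possible because the labels match no WT with KO mice, apart from the 1 identifier found in both bulk groups. Ppp1r1b in SAPAP3 WT was at adjusted p = 0.050 with limma-voom, and Gng7 in the neuron cohort at 0.23 with total counts (edgeR adjusted p = 0.060). Over all genes, KO against WT gave 1, 4 and 0 calls in inputs, IP and bulk with edgeR or limma-voom and 8, 8 and 17 with DESeq2.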

Other observations

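Interneuron markers differed from the members in the astrocyte cohort. The 10 markers of striatal interneurons summed to 339–361 CPM in inputs and 1282–1424 in IP, and 9 of 10 were called higher in IP (39.2% of all genes were), from Nos1 at 3.29 on the log2 scale downward, while Pvalb was at −0.83. Medium spiny neuron markers were lower in the same IP in 10 of 10 cases, from Adora2a at −1.45 to Bcl11b at −0.53. Microglial markers summed to 957–1190 CPM in inputs and 53–60 in IP of that cohort. The interneuron sum was higher in SAPAP3 cohort IP too, with means of 885 CPM in WT and 827 in KO. Its means in the inputs of that cohort were 364 CPM in WT and 381 in KO. With TMM scaling the members' median IP over input difference there was −0.54 in WT and −0.52 in KO. In the neuron cohort, where members were higher in IP, the interneuron sum had means of 468 CPM in IP and 339 in inputs.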
